A study of Homo sapiens with 6 samples.

Results

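The POU2 transcription factors, the small coactivator proteins that dock on them, and the receptor tyrosine kinase KIT were followed in MDA-MB-468 cells exposed to nitric oxide. The set holds 8 of the 45019 rows of the expression table: POU2AF1, C11orf53, COLCA2 and COLCA1 on chromosome 11, the factors POU2F1, POU2F2 and POU2F3, and KIT. The members were chosen by name, and the choice was made on measured values: POU2AF1, COLCA2 and KIT had been seen among the deepest falls of the same contrast. Their fold changes are therefore given as a description with no p-value, and so are those of COLCA1 and C11orf53, which lie in the same stretch of the genome. Counts of members past a threshold include these 5 genes and are no test of them. MDA-MB-468 is an established triple-negative, basal-like human breast cancer line. Both groups are labelled day 10 and carry the same protocol text, in which plated cells had 4 h to adhere and were replated every 48 h, with the dishes of a replicate pooled each time. One group was untreated, and in the other DETA/NO, a slow nitric oxide donor, was present at 100 µM. No allele or other agent distinguishes the groups in the labels, and the handling of the untreated dishes is not described apart. Each group has 3 labelled samples, but DETA/NO samples 1 and 2 carry the same file content, so 3 untreated libraries were compared with 2 DETA/NO libraries, called the shared library (samples 1 and 2) and library 3. Nothing in the labels says that the samples are separate cultures, so p-values measure the spread between these libraries only.

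POU2 factors bind an octamer sequence in DNA through a POU-specific domain and a homeodomain joined by a linker, and they need partners to activate many promoters. POU2F1 (Oct-1) is made in nearly all cells, POU2F2 (Oct-2) mainly in B cells and some neurons, and POU2F3 in epidermis and in tuft cells, the chemosensory cells of epithelia. POU2AF1 (OCA-B) is the coactivator known from B cells, while C11orf53 (also POU2AF2 or OCA-T1) and COLCA2 (also POU2AF3 or OCA-T2) are its relatives that serve POU2F3 in tuft cells and tuft-like tumours. KIT, the receptor of stem cell factor, is used by mast cells, melanocytes and germ cells, and it marks luminal progenitors in the mammary gland.

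Reads assigned to genes, recovered from the normalized values, numbered 28897422 to 34637343 per library. Markers of the line were present in both groups: EGFR, EPCAM, CDH1, KRT8, KRT18, KRT19 and the mesenchymal marker VIM summed to 337003 to 338695 normalized reads in untreated and 360535 to 364741 in DETA/NO libraries, most of it EGFR. Within this sum EGFR rose by 0.15 (log2 scale, limma adjusted p = 9.35e-06), with both DETA/NO libraries above every untreated one. KRT19 fell by 0.18 (adjusted p = 0.00627) and VIM rose from 323 ± 38.8 to 517 ± 10.7 (adjusted p = 1.80e-07). EPCAM, CDH1, KRT8 and KRT18 were not called. Most markers chosen for other users of these genes had a mean under 10 normalized reads, with POU2F3, AVIL and PMEL above it. In the longer lists given below, 9 of 27 B cell and plasma cell genes and 14 of 32 tuft cell genes reached that mean. CD22, IL17RB and PLCG2 were among these. The 5 B cell markers summed to 5.73 to 12.8 normalized reads untreated and 11.4 to 17.7 with DETA/NO, with CD79B at 0 everywhere, and the 4 mast cell markers summed to at most 0.950. Of the 8 tuft markers only POU2F3 and AVIL reached the mean of 10 normalized reads needed for testing, and GNG13 was at 0 throughout. The 8 tuft markers summed to 497 to 529 untreated and 433 to 437 with DETA/NO, most of it POU2F3. Among 4 melanocyte markers PMEL alone passed that minimum (the sum was 32.5 to 37.0 against 42.1 to 42.7), and MLANA and TYR were at 0. Fibroblast markers summed to 571 to 630 and 836 to 843, nearly all of it COL1A1, which rose by 0.49 (log2 scale, limma adjusted p = 2.19e-07). COL1A2, DCN and LUM had at most 2 reads in any library. The 3 endothelial markers summed to 172 to 180 and 255 to 291. Of these 3, CDH5 rose from 74.0 ± 1.62 to 173 ± 41.2 (adjusted p = 9.93e-08), while PECAM1 (78.3 untreated) and VWF (22.2) were not called. The part of these markers in the results below was not tested. In total RNA from whole cultures, a smaller number of cells that make a transcript and less of it per cell cannot be told apart.

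All 4 genes of the chromosome 11 stretch stood at 18.7% to 31.6% of their untreated mean after DETA/NO, and KIT at 24.9%. Of the factors themselves, POU2F3 was at 84.1%, POU2F2 at 91.5% and POU2F1 at 99.7% of the untreated mean. By limma with Benjamini-Hochberg adjustment over 16409 tested genes, 6 of the 8 members were called lower and 0 higher, where 21.7% of all tested genes were called lower, 21.7% higher and 43.4% in either direction. 5 of the 8 were lower by at least 2-fold, against 1.61% of all tested genes. In 7 of the 8, both DETA/NO libraries lay below every untreated library, as in 30.8% of all tested genes (the opposite order held in 30.4%). Because the members were picked on this contrast, nothing is read from these counts.

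**Figure D1:**
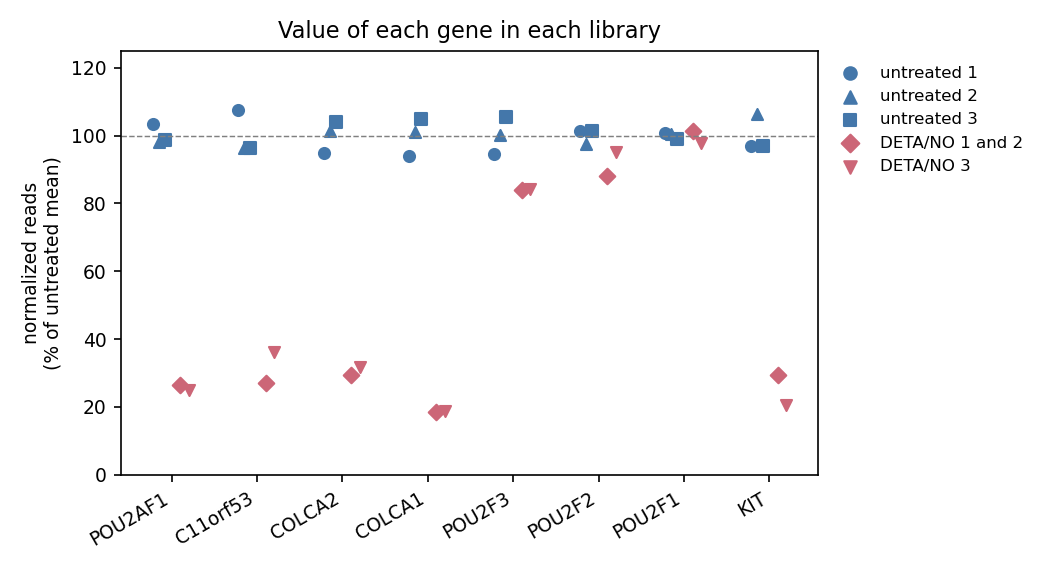
Normalized reads of each gene in each of the 5 libraries, as a percentage of that gene's untreated mean (dashed line at 100%), with 1 symbol per library. The 4 chromosome 11 genes and KIT lie between 18.5% and 36.2% in the DETA/NO libraries, whereas POU2F3, POU2F2 and POU2F1 lie between 83.9% and 101%.

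The B cell coactivator POU2AF1 had untreated values of 749, 711 and 716 normalized reads. It had 193 in the shared DETA/NO library and 181 in library 3. The groups did not overlap, and the DETA/NO libraries were at 26.6% and 25% of the untreated mean. The means were 726 ± 20.7 (SD, n = 3) and 187 ± 8.08 (SD, n = 2), a log2 fold change of -1.95 ± 0.0774 (SE). POU2AF1 is annotated on the minus strand of chromosome 11 at 111352252 to 111455630 (GRCh38, GENCODE release 29).

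C11orf53 is the first gene of the stretch, on the plus strand at 111245805 to 111286401, and no other annotated gene overlaps it. It had 219.8, 197 and 197 normalized reads untreated. With DETA/NO it had 55.4 in the shared library and 74.1 in library 3. Both DETA/NO values were low but apart from each other, at 27.1% and 36.2% of the untreated mean, and they rest on 50 and 78 reads. The log2 fold change was -1.66 ± 0.138 (SE).

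COLCA2, the second tuft-type coactivator, lies at 111298555 to 111308735 on the plus strand. Its untreated values were 387, 413 and 424 normalized reads. Its DETA/NO values were 120 in the shared library and 129 in library 3. The groups were again separate, with the DETA/NO libraries at 29.3% and 31.6% of the untreated mean (log2 fold change -1.71 ± 0.0970, SE). COLCA1, annotated by GENCODE as an antisense RNA, lies on the opposite strand at 111290787 to 111305045 and had 993, 1070.3 and 1111 normalized reads untreated. With DETA/NO it had 196 and 199, the lowest share of the untreated mean among the 8 genes (18.5% and 18.8%, log2 fold change -2.41 ± 0.0711, SE).

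The annotated spans of COLCA1 and COLCA2 share 6491 bp. Other genes' exons cover 21.2% of the exon bases of COLCA2 and 4.99% of those of COLCA1. Whether counting used the strand is not given in the sources used here, so reads of the shared exon bases are uncertain between both genes. The pair did not keep one ratio. COLCA1 had 2.57, 2.59 and 2.62 reads per read of COLCA2 in the untreated libraries, and 1.64 and 1.54 in the DETA/NO libraries. The ratio was thus lower in both DETA/NO libraries than in any untreated one.

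RefSeq places a start of COLCA1 and a start of COLCA2 only 100 bp apart, back to back, so that the transcripts run in opposite directions. The promoter windows of these starts (250 bases before to 50 after the start, GRCh38.p14) are chr11:111299160-111299459 on the minus strand and chr11:111299059-111299358 on the plus strand. They are shown because the pair is low together and the windows share 199 bp, printed in capitals as the same bases read from opposite strands.
COLCA1: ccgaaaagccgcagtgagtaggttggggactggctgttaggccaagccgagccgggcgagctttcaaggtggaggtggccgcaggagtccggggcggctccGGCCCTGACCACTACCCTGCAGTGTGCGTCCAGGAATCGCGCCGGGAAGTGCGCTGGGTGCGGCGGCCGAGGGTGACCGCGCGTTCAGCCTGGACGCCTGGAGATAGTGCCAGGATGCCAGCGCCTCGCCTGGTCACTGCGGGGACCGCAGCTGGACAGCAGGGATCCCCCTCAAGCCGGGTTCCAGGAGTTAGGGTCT
COLCA2: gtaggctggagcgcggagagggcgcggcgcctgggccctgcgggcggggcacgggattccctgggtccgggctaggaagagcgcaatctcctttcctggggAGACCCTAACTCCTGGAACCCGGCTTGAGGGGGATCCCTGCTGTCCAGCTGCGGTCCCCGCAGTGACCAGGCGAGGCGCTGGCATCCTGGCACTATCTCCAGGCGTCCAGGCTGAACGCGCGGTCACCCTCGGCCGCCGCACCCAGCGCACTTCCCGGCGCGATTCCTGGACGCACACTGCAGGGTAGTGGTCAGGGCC
The windows are 68.3% and 70.3% G and C. RefSeq lists 5 starts for COLCA1 and 3 for COLCA2 in all, and the counts per gene do not say which start was used. Any part of these sequences in the low values was not tested.

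The receptor gene KIT had untreated values of 333, 365 and 333 normalized reads. It had 101 in the shared DETA/NO library and 70.3 in library 3. Both DETA/NO values were far below the untreated ones, but at 29.4% and 20.5% of the untreated mean they lay further apart than those of POU2AF1, COLCA1 or COLCA2. They rest on 91 and 74 reads. The means were 343 ± 18.6 (SD, n = 3) and 85.6 ± 21.6 (SD, n = 2), a log2 fold change of -2.01 ± 0.125 (SE). KIT occupies 54657918 to 54740715 on the plus strand of chromosome 4, with no annotated gene overlapping it.

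The promoter window of KIT is printed because KIT was low together with genes of another chromosome. It covers chr4:54657707-54658006 on the plus strand (RefSeq, GRCh38.p14) and is 74.3% G and C, and its single GC box is in capitals.
KIT: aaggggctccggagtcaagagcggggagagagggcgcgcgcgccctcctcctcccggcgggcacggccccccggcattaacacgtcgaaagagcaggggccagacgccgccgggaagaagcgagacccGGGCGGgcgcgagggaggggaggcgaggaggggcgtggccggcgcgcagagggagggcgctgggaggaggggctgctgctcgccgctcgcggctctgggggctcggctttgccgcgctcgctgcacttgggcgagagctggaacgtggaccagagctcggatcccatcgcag
The GC box (GGGCGG or CCGCCC, both strands searched) occurs in 45.0% of all 35116 promoter windows of this length. Of the 13 windows of members, 7 hold it, among them windows of POU2F1 and POU2F2, which were not called lower. The octamer bound by POU2 factors (ATGCAAAT or ATTTGCAT, both strands) is not in the KIT window or in any of the 8 windows of COLCA1 and COLCA2, and 1.77% of all windows hold it. With 1 free position (ATGCNAAT or ATTNGCAT, a pattern that includes the octamer) none of these 9 windows matched either, against 2.97% of all windows. Any part of the KIT sequence or of these motifs in the low values was not tested. Windows of 5 of the 8 members were at hand, 13 in all. None was at hand for POU2AF1, C11orf53 and POU2F3, so these genes were not searched.

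The factors that these coactivators serve stood closer to their untreated levels. POU2F3, the tuft cell factor, had 395, 418 and 439.9 normalized reads untreated. It had 350.1 and 352 in the DETA/NO libraries, below all untreated values (log2 fold change -0.25 ± 0.0809, SE, limma adjusted p = 0.0134). Its adjusted p was 0.0506 without untreated library 3, 0.0596 without the shared DETA/NO library, and 0.0729 in DESeq2. POU2F3 lies on the same chromosome, 8.78 Mb beyond POU2AF1, at 120236640 to 120319944.

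POU2F2, the B cell factor, lies on chromosome 19 at 42086110 to 42196585 and had 138, 132 and 138 normalized reads untreated. It had 119.7 and 129 with DETA/NO. The groups did not overlap, but the difference was not called (log2 fold change -0.13 ± 0.127, SE, adjusted p = 0.452). POU2F2 and COLCA2 had the same number of reads in each DETA/NO library, 108 and 136.

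POU2F1, the ubiquitous factor on chromosome 1 at 167220829 to 167427345, had 2262, 2253 and 2219 normalized reads untreated and 2276 and 2198 with DETA/NO. The groups overlapped, and the log2 fold change was -0.01 ± 0.0401 (SE, adjusted p = 0.935), with 2 SE around it spanning -0.09 to 0.08. Against this factor, POU2AF1 had 0.323 ± 0.00780 reads per read of POU2F1 untreated (SD, n = 3) and 0.0836 ± 0.00156 with DETA/NO (SD, n = 2). POU2F1 is the 1 member of the 5 with an octamer in a promoter window. RefSeq lists 3 starts for POU2F1, and only the window of the start at 167329070 holds an octamer. The windows of the starts at 167220885 and 167220886 do not. The counts per gene do not say which start was used. The octamer is shown in capitals with 30 bases on each side, from the window chr1:167328820-167329119 (plus strand, GRCh38.p14). It begins at position -179 from the start at 167329070.
POU2F1: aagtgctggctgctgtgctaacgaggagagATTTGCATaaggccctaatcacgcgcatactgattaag

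Levels can be ordered across genes only per length, here in normalized reads per kb of annotated exon. The length joins all annotated exons of a gene, from 1264 bases for C11orf53 to 16078 for POU2F1. The annotation used for counting is not given, so the order depends on these lengths. Untreated cells had the most COLCA2 (198 ± 9.25, SD, n = 3), then C11orf53 (162 ± 10.4), POU2F1 (140 ± 1.42), COLCA1 (121 ± 6.86) and POU2AF1 (97.8 ± 2.79). The untreated ranges of these 5 genes did not overlap. POU2F3 (62.8 ± 3.40) and KIT (61.7 ± 3.35) followed and did not differ beyond their spread. POU2F2 was lowest at 14.98 ± 0.333. On this scale COLCA2 lay at the 59.9th and POU2F2 at the 16.9th percentile of tested genes, with KIT at the 36.4th.

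After DETA/NO the levels per kb stood in another order. POU2F1 led at 139 ± 3.42 (SD, n = 2), above COLCA2 at 60.4 ± 3.25. C11orf53 (51.2 ± 10.4) had a range that took in POU2F3 (52.9 ± 0.229) and reached that of COLCA2. POU2AF1 (25.2 ± 1.09) and COLCA1 (22.6 ± 0.266) came next. KIT, at 15.4 ± 3.89, had a range that included POU2F2 at 13.7 ± 0.738. On this scale COLCA2 and C11orf53 were above the level of POU2F1 in untreated cells and below it with DETA/NO.

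**Figure D2:**
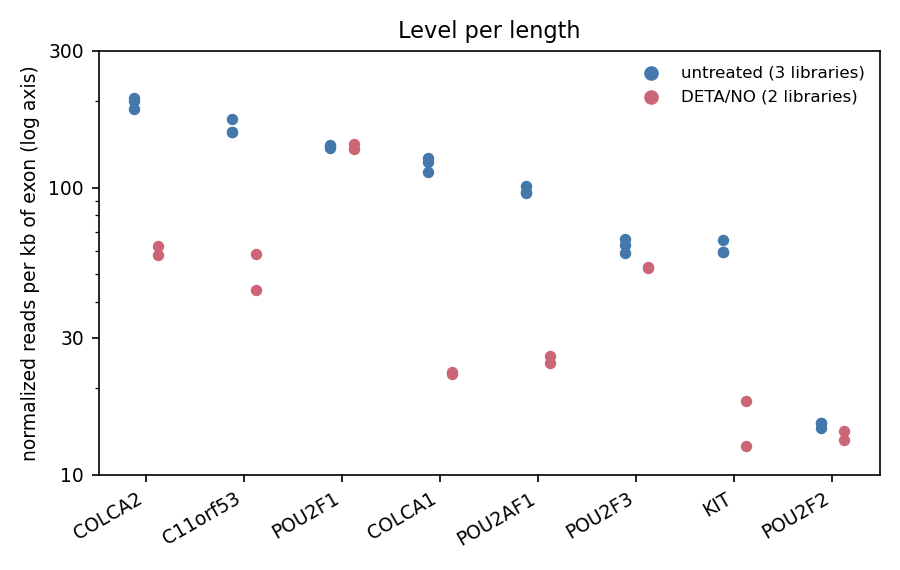
Normalized reads per kb of annotated exon on a log axis, genes ordered by their untreated mean, with 1 point per library (3 untreated, 2 DETA/NO). COLCA2 heads the untreated order at 198 and POU2F1 the DETA/NO order at 139, while POU2F2 has the lowest mean in both groups.

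The stretch from C11orf53 to POU2AF1 measures 210 kb, with a gap of 4.39 kb between C11orf53 and COLCA1 and of 43.5 kb between COLCA2 and POU2AF1. Inside it MIR4491, RNU2-60P and AP002008.3 are also annotated, and none had more than 1 read in any library. Genes outside the stretch were tested in the same fit. Of 46 neighbours within 1 Mb, 20 were at 0 in every library and 19 passed the filter, of which 4 rose and 2 fell (21.1% and 10.5%, against 21.7% and 21.7% of all tested genes). Their median log2 fold change was -0.02, against -0.00016 for all tested genes. The nearest tested neighbours did not pass. SIK2, a salt-inducible kinase 147 kb away, had a log2 difference of 0.09 ± 0.0371 (SE, not called at adjusted p = 0.0605), and ARHGAP20, a GTPase-activating protein 533 kb away on the other side, had one of -0.68 ± 0.372 (adjusted p = 0.147).

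Further out, CRYAB, the small heat shock protein alpha B-crystallin, fell from 2094 ± 148 to 1591 ± 10.4 (log2 fold change -0.39 ± 0.0488, adjusted p = 1.47e-07); other genes' exons cover 20.6% of its exon bases. PTS, an enzyme of tetrahydrobiopterin synthesis, rose by 0.19 on the log2 scale (adjusted p = 0.000166), and the long noncoding AP002884.1 and AP003063.1 rose by 0.75 and 0.73. NKAPD1 rose by 0.12, and FDX1, a mitochondrial ferredoxin, fell by 0.13. Leaving out the shared DETA/NO library gave NKAPD1 an adjusted p of 0.174 and FDX1 one of 0.376. Without untreated library 1 these were 0.113 and 0.105, and FDX1 had 0.0746 without untreated library 2. AP003063.1 had 0.147 without DETA/NO library 3. DESeq2 called 3 of the 19 neighbours.

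Around KIT, 29 neighbours had a row, 12 were at 0 and 8 were tested, of which 2 rose and 1 fell (25% and 12.5%, against 21.7% and 21.7%). KDR, the VEGF receptor and a kinase relative of KIT, rose from 175 ± 19.7 to 256 ± 17.0 (log2 fold change 0.55 ± 0.112, adjusted p = 0.000178). SRD5A3, a steroid reductase family enzyme, rose by 0.50, and CLOCK, a circadian factor, fell by 0.19 (adjusted p = 0.0191). The adjusted p of CLOCK was 0.0776 without untreated library 1, 0.0929 without the shared DETA/NO library and 0.0557 without DETA/NO library 3. PDGFRA, a receptor gene beside KIT and its close relative, had 7.39 to 13.4 normalized reads untreated and 1.11 and 4.75 with DETA/NO and was not tested.

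**Figure D3:**
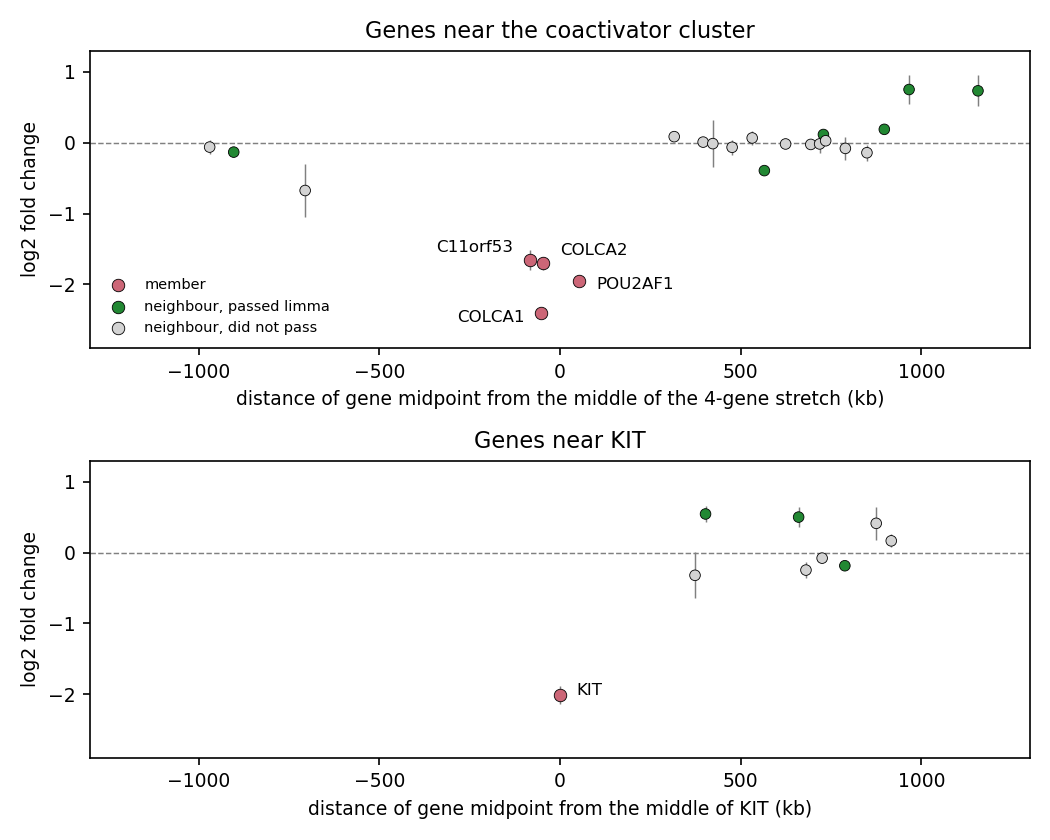
Log2 fold change with its SE (bars) of each tested gene against the distance of its midpoint from the middle of the 4-gene stretch (top) or of KIT (bottom). The members lie between -2.41 and -1.66 and the tested neighbours between -0.68 and 0.75.

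KIT signals through its ligand KITLG and through adaptors and kinases, and is restrained by phosphatases and ubiquitin ligases. Of 29 listed genes of this pathway 28 were tested, and 10 rose and 4 fell (35.7% and 14.3%, against 21.7% of all tested genes in each direction, with a median log2 fold change of 0.08). KITLG, stem cell factor itself, fell from 7360.0 ± 41.7 to 6807 ± 68.2 normalized reads (a log2 fold change of -0.11 ± 0.0308 at adjusted p = 0.00341). Among adaptors and effectors, the kinase FYN rose from 109.9 ± 21.3 to 240.0 ± 21.1 (a log2 fold change of 1.13 ± 0.137 at adjusted p = 7.29e-08), and the docking protein GAB2 rose by 0.43. PLCG2, a phospholipase also used by B cells and tuft cells, fell from 4568 ± 187 to 2499.9 ± 3.24 (log2 fold change -0.87 ± 0.0373, adjusted p = 1.37e-18). PIK3R1, the regulatory subunit of PI3-kinase, fell by 0.37 on the log2 scale.

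Among the negative regulators, PTPRU, a receptor tyrosine phosphatase, had 1129.7, 1136 and 1347 normalized reads untreated and 454 and 528 with DETA/NO. The groups were far apart (log2 fold change -1.29 ± 0.0801, adjusted p = 1.31e-09). The MAPK pathway inhibitor SPRED1 and the adaptor GRB10 rose by 0.48 and 0.44. The fit without a mean-variance trend and without the robust option called 8 of the 28 genes, and KITLG was not among them (adjusted p = 0.0780).

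Of the receptors most like KIT, PDGFRA and PDGFRB were under the filter. FLT3 had 15.3 to 23.5 normalized reads untreated and 26.6 and 38.0 with DETA/NO and was not called (adjusted p = 0.0544). CSF1R, the receptor of macrophage colony-stimulating factor, rose from 2274 ± 30.5 to 2569 ± 2.14 (log2 fold change 0.18 ± 0.0391, adjusted p = 0.000425). Of 8 tested genes among these receptors and their ligands, 1 rose and 2 fell (12.5% and 25%, against 21.7% and 21.7%). PDGFC, a platelet-derived growth factor, fell by 0.20, and PDGFA fell by 0.30 (adjusted p = 0.0257). The adjusted p of PDGFA was 0.0765, 0.0505 and 0.190 without untreated library 1, untreated library 3 and DETA/NO library 3.

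Factors with known roles at the KIT gene in other cells were also listed. Of 12 tested, 4 rose and 4 fell (33.3% each, against 21.7% of all tested genes in each direction, with a median log2 fold change of 0.14). MITF, the melanocyte and mast cell factor, rose from 410.5 ± 15.3 to 809 ± 50.5 (log2 fold change 0.98 ± 0.0713, adjusted p = 6.79e-13). RUNX1 and GATA3 rose by 0.57 and 0.47, and TFAP2A by 0.20. MYB, a factor of blood progenitors that luminal breast cells also make, had 1109.6, 1114 and 1187 normalized reads untreated and 642 and 657 with DETA/NO (log2 fold change -0.81 ± 0.0567, adjusted p = 2.77e-13). SP1, a factor that binds GC boxes, fell by 0.21, and TFAP2C by 0.19. ETV1, a factor known beside KIT in gastrointestinal stromal tumours, fell by 0.29 (adjusted p = 0.0412). Its adjusted p was 0.0521 in edgeR and 0.112, 0.0951 and 0.577 without untreated library 1, untreated library 2 and DETA/NO library 3. TAL1 and GATA1, partners in mast cells, had at most 3 reads in any library.

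KIT marks luminal progenitors of the breast, and 12 of 14 listed genes of those cells were tested. Of these, 8 fell and 1 rose (66.7% and 8.33%, against 21.7% of all tested genes in each direction, with a median log2 fold change of -0.29). The list was written with earlier results of these libraries known, so its direction is not independent evidence. PROM1, the membrane protein CD133, fell from 5518 ± 102 to 3529.8 ± 57.4 (log2 fold change -0.64 ± 0.0338, adjusted p = 2.04e-16). SLPI, a secreted protease inhibitor, fell by 0.68, the lipopolysaccharide coreceptor CD14 by 1.15 and RARRES1, a retinoic acid response gene, by 0.46 on the log2 scale. GABRP, a GABA receptor subunit, had the deepest of the called falls (log2 fold change -2.14, adjusted p = 2.33e-12). EHF, ELF3 and TNFRSF11A, the RANK receptor, made up the other falls, by 0.30, 0.16 and 0.15. For ELF3 the adjusted p became 0.188 when the shared DETA/NO library was left out, and TNFRSF11A had 0.0913, 0.130, 0.0649 and 0.216 without untreated library 1, untreated library 2, the shared DETA/NO library, and DETA/NO library 3. ALDH1A3, a retinaldehyde dehydrogenase, was the 1 gene that rose (0.19). Its adjusted p became 0.624 with DETA/NO library 3 left out and 0.0650 or 0.0523 with untreated library 1 or 2 left out.

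Genes of tuft cells, which use POU2F3 with COLCA2 and C11orf53, were called about as often as all genes. Of 32 listed 14 passed the filter, and 3 rose and 3 fell (21.4% each, against 21.7% of all tested genes in each direction, with a median log2 fold change of 0.11). PLCG2 is also on this list. IL17RB, the interleukin 25 receptor chain, fell from 732 ± 27.2 to 545 ± 15.1 (a log2 fold change of -0.43 ± 0.0649 at adjusted p = 2.44e-06), and PTGS1, the cyclooxygenase COX1, fell from 32.6 ± 3.89 to 17.0 ± 2.58. ITPR3, an inositol trisphosphate receptor, rose by 0.23, while the taste receptor TAS1R3 and the kinase DCLK1 rose by 0.73 and 0.96 at low levels (26.3 and 13.7 normalized reads untreated). Without DETA/NO library 3, TAS1R3 (adjusted p = 0.0699), PTGS1 (0.0652) and DCLK1 (0.370) were not called, and 3 listed genes were. TAS1R3 also had 0.150 without untreated library 2 and 0.135 without the shared DETA/NO library. AVIL, an actin-binding protein of tuft cells, had 75.8 to 86.0 normalized reads untreated and 64.3 and 66.5 with DETA/NO (adjusted p = 0.187).

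Of 27 B cell and plasma cell genes 9 were tested, and 2 rose and 2 fell (22.2% each, close to the 21.7% of all tested genes). CD22, an inhibitory lectin of B cells, rose from 449 ± 10.4 to 650.4 ± 29.7 (a log2 fold change of 0.53 ± 0.0709 at adjusted p = 2.28e-07), and the complement receptor CR2 rose by 0.88 from 14.7 ± 2.39. XBP1, a secretory cell factor that epithelial cells also make, fell by 0.62, and BCL6, a repressor of germinal centre B cells, by 0.28. Leaving out untreated library 3 or DETA/NO library 3 gave CR2 an adjusted p of 0.0595 or 0.190. Of 14 mast cell and melanocyte genes 2 were tested, PMEL, which was not called (adjusted p = 0.378), and SLC45A2, a melanocyte transporter. SLC45A2 had 14.3, 10.8 and 18.5 normalized reads untreated and 5.54 and 4.75 with DETA/NO. It passed the filter only through its untreated values, so its call, the 1 of this list, is not read as a fall.

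POU2F1 works with the SNAP complex at small nuclear RNA genes and with other partners at histone genes. Of 16 such partners, all tested, 4 rose and 3 fell (25% and 18.8%, close to the 21.7% of all tested genes in each direction, with a median log2 fold change of 0.05). SNAPC1, a subunit of that complex, had 352, 343 and 338 normalized reads untreated and 800.0 and 675 with DETA/NO (log2 fold change 1.09 ± 0.0785, adjusted p = 4.92e-13). Other genes' exons cover 21.3% of its exon bases. SNAPC2 and SNAPC4 rose by 0.39 and 0.18 and the host cell factor HCFC1 by 0.14. SP1 fell as above, and the general factor subunit GTF2A1 and NPAT, the histone gene regulator, fell by 0.13 and 0.12. Without the shared DETA/NO library, 4 of the 16 were called, and SNAPC2 (adjusted p = 0.119), NPAT (0.126) and GTF2A1 (0.0937) were not. GTF2A1 had 0.0678 and 0.0976 without untreated libraries 1 and 2, and SNAPC4 0.0526 without DETA/NO library 3. Of 12 other POU factors with a row, 6 were at 0 in every library, and POU5F1, the pluripotency factor Oct-4, was tested and not called (adjusted p = 0.649).

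**Figure D4:**
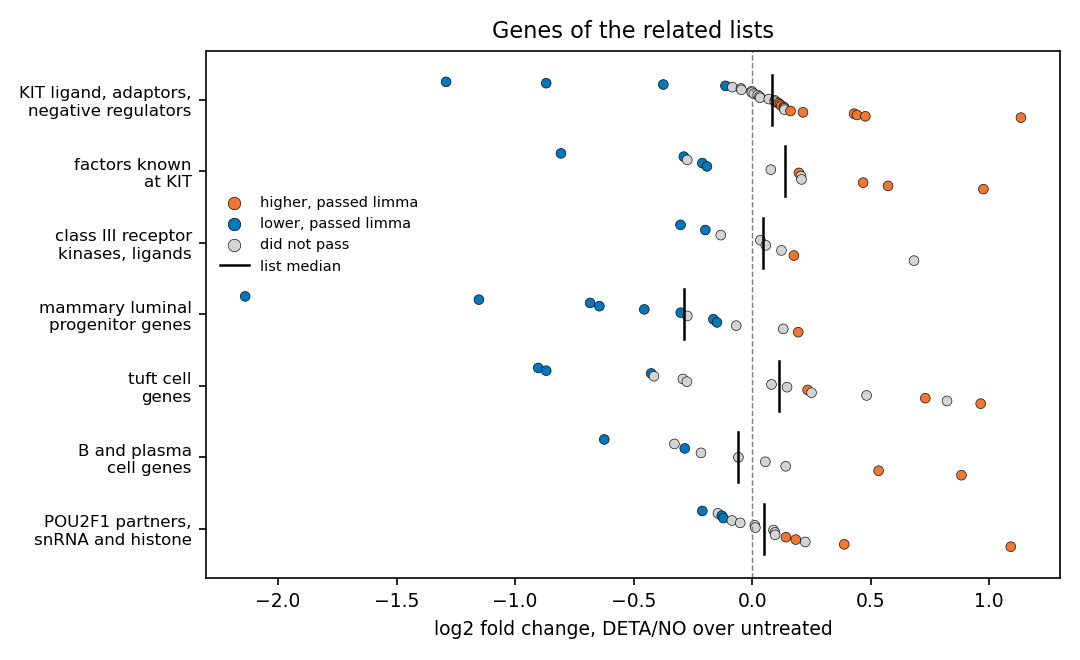
Log2 fold change of each tested gene in 7 lists, with points coloured by whether they passed limma (adjusted p under 0.05) and a bar at each list's median. The medians lie between -0.29 (mammary luminal progenitor genes) and 0.14 (factors known at KIT), and each list holds genes called in both directions.

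Profiles most like those of POU2AF1, COLCA2 and KIT were ranked by the Euclidean distance between log2 values over the 5 libraries, each centred on its untreated mean. POU2AF1 lay nearest to CYP4Z1, a cytochrome P450 of mammary tissue (distance 0.14, from 1014 ± 26.5 to 262 ± 5.45 normalized reads), and then to AC108063.2, KIAA1324, C8orf31 and PIP, the prolactin-induced protein (0.30). KIT was the 8th nearest of all other tested genes to POU2AF1 (0.35), and POU2AF1 the 2nd nearest to KIT, after PIP (0.34) and before TFAP2B, C20orf187 and PIGR, the polymeric immunoglobulin receptor. COLCA2 lay nearest to PPP1R1B (0.10), a phosphatase inhibitor, and then to SOSTDC1, AC007906.2, GYG2 and DOK5 (0.17). C11orf53 was the 11th nearest to COLCA2 (0.32), POU2AF1 the 24th (0.40), KIT the 70th (0.63) and COLCA1, the gene that overlaps it, the 187th (1.00). COLCA2, C11orf53 and COLCA1 were 13th, 23rd and 35th from POU2AF1 (0.40, 0.55 and 0.68), and 18th, 43rd and 27th from KIT (0.63, 0.85 and 0.69). PIP, TFAP2B, C20orf187 and DOK5 had low levels, from 14.6 to 34.3 normalized reads in untreated cells. In each DETA/NO library these genes had only 3 to 7 reads. Like SLC45A2, they passed the filter only through their untreated values, so their places in the rankings are not read as shared falls. These distances describe 5 libraries in 2 groups that share the contrast on which POU2AF1, COLCA2 and KIT were chosen.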

How the data were processed

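Total RNA was prepared with RNAqueous-4PCR and libraries with KAPA RNA Hyper Prep, per the labels. Reads were processed with TopHat2 2.1.1, featureCounts 2.0.3 and DESeq2 1.38.3 on GRCh38, per the submitters' processing notes; gene annotation and strand setting are not given in the sources used here. The deposited values are a signal per gene, normalized counts. In every library 100% of them are whole multiples of the value of 1 read (tolerance 0.01), so whole reads were recovered. A total of 27 row names had turned into dates, holding 0.246% of reads. Values were fitted as log2(value + 1) with limma 3.58.1 (trend, robust) in R 4.3.3, for genes with a mean of at least 10, with Benjamini-Hochberg adjustment and a threshold of 0.05. Fold changes are on that scale, which understates those of low genes. The file shared by DETA/NO 1 and 2 was counted once. Members and lists were chosen with earlier results of these data known. All 8 members are named, with up to 4 called genes a list in each direction by adjusted p, genes between the members, and the 5 nearest profiles of POU2AF1, COLCA2 and KIT; other genes were named after their values were seen. Exon lengths are from GENCODE release 29. Alternatives were edgeR 4.0.16 and DESeq2 1.42.0 on recovered reads, other scalings, pseudocounts and filters, replicate blocks and leaving out each library. The main limma fit and edgeR were also run on simulated data, and the other alternatives were not.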

Additional observations from a re-analysis of the deposited data

How the results depend on the processing

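Over 16 alternatives the log2 fold changes ran from -1.99 to -1.91 for POU2AF1, -2.46 to -2.38 for COLCA1, -1.76 to -1.65 for COLCA2, -1.86 to -1.45 for C11orf53 and -2.27 to -1.76 for KIT. These genes were selected on this contrast in the same libraries, so their sign and calls say nothing of stability. POU2F3 ran from -0.29 to -0.21 and was called in 13 of the 16. POU2F1 lay between -0.03 and 0.02 and POU2F2 between -0.18 and -0.07, not called in any. The count of all called genes ran from 4759 to 7213, with 5340 in DESeq2 and 7001 in edgeR, and from 5579 to 7077 when single libraries were left out. DESeq2 called 3 tuft cell genes, 0 mast cell and melanocyte genes and 3 chromosome 11 neighbours. A mean of at least 50 left 3 tuft cell genes and 0 mast cell and melanocyte genes called, and no filter gave 2 of the latter. Without trend and robust options limma called 8 genes of the KIT pathway list, 3 POU2F1 partners and 2 mast cell and melanocyte genes. Leaving out single libraries gave 3 to 6 tuft cell genes, 4 to 8 POU2F1 partners and 0 to 2 mast cell and melanocyte genes. Of 208 counts, 195 stayed within 1.5 times. The 208 include the counts of the selected members and those of other POU factors, which were 0 in every setting. Neither of these speaks to stability. Of 59 called list genes 33 kept their call in every alternative and 0 changed sign. The cause was not tested. With the replicate number as a block, and the shared DETA/NO library as number 1 or 2, 6605 or 6321 genes were called. Deviations of libraries of the 2 groups correlated at -0.0301 to 0.0301. The 2 DETA/NO libraries, centred on their own mean, deviate in exact opposition. These correlations therefore mirror each other and cannot decide whether the numbers mark a pairing. Values of C11orf53 and KIT rest on under 100 reads in each DETA/NO library, which limits their precision.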
